A study of Homo sapiens with 6 samples.

Results

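The ID proteins and E-proteins were examined in RNA sequencing of HL60 cells, through 7 genes taken by name from the deposited count table: ID1, ID2, ID3, ID4, TCF3, TCF4 and TCF12. All 7 were found among its 56638 gene names, and 6 of them had enough reads to be tested. HL60 is an established human leukaemia cell line arrested near the promyelocyte stage. A set of 3 libraries came from HL60 cells with CRISPR/Cas9-mediated deletion of SKI, whose product represses SMAD-driven transcription, and another 3 from HL60 cells described as a CRISPR/Cas9 control, all grown in RPMI medium with 10% fetal calf serum. The knockout libraries carry the line number 3 and the control libraries the line number 1, so each group held 1 line, and a difference between lines cannot be told apart from an effect of SKI. Whether the replicates were grown apart is not stated in the labels. The p-values therefore rest on differences among libraries of a group that may be technical.

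E-proteins are basic helix-loop-helix (bHLH) transcription factors that bind the E-box sequence as dimers, with each other or with tissue-restricted bHLH partners. TCF3 encodes E12 and E47, TCF4 encodes E2-2 and TCF12 encodes HEB. ID proteins carry the helix-loop-helix but no basic region, so a dimer of an ID protein with an E-protein cannot bind DNA. ID genes are classic targets of BMP and SMAD signalling. In blood, E-proteins are best known for driving lymphoid development, E2-2 for plasmacytoid dendritic cells, and ID2 for innate lymphoid and dendritic cells. The unrelated genes TCF7L1 and TCF7L2, which have also been called TCF3 and TCF4, are separate entries in the count table.

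The stretches of 250 bases before the RefSeq start (GRCh38.p14) are shown for the ID genes with reads in these cells and for TCF3, since each has a single start in the table. They lie at chr20:31605039-31605288 (plus strand), chr2:8681806-8682055 (plus strand), chr1:23559502-23559751 (minus strand) and chr19:1652616-1652865 (minus strand), and are written in the direction of the gene. Capitals mark every match on either strand to the E-box CANNTG, to the SMAD box CAGAC with its complement GTCTG, and to the CCAAT box with its complement ATTGG, and on the strand of the gene to the TATA box TATAAA. The BMP element GGCGCC was searched as well and has no match in these windows. No matches overlap.
ID1: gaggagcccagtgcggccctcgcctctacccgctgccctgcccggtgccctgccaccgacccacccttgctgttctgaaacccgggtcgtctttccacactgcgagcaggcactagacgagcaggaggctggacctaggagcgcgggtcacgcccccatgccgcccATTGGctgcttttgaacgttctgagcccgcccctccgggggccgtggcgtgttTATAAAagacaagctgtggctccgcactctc
ID2: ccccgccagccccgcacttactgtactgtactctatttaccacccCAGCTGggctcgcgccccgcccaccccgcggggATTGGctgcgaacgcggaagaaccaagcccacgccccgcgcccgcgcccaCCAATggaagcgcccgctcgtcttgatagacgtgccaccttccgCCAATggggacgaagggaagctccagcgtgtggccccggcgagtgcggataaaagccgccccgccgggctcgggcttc
ID3: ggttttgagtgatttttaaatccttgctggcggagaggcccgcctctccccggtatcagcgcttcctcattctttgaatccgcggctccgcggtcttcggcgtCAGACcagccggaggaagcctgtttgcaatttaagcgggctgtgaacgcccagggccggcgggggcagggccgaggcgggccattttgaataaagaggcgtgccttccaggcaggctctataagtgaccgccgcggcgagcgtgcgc
TCF3: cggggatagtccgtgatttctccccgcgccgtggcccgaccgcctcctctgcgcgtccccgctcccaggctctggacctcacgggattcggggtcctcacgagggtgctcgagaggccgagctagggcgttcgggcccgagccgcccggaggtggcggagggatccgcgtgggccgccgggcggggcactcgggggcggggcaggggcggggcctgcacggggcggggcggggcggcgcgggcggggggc
The ID2 window held 1 E-box and 3 CCAAT boxes, the ID1 window 1 CCAAT box and 1 TATA box, and the ID3 window 1 SMAD box. The TCF3 window held none of these motifs and was 79.6% G and C. The bases just after the RefSeq start were found in a GENCODE transcript for ID1, ID2 and ID3, but not for TCF3. Of 35114 such windows of all genes, 61.8% held an E-box, 38.0% a SMAD box, 32.0% a CCAAT box, 16.4% GGCGCC and 6.80% a TATA box. TCF4 has 10 listed starts, of which 5 had an E-box and 5 a SMAD box, and TCF12 has 5, of which 2 had an E-box and 2 a SMAD box. Counts per gene do not separate these starts. A match describes the letters of a window and is not a binding site.

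Library totals ran from 47930276 to 58553247 counts. SKI itself stood at 63.9, 83.5 and 88.5 CPM (counts per 1000000, with library sizes scaled by TMM) in control replicates 1 to 3, against 59.6, 40.7 and 42.0 CPM in knockout replicates 1 to 3. Its log2 fold change was -0.73 (SE 0.19, edgeR adjusted p = 0.0282). The SKI call ended without control replicate 2 (adjusted p = 0.109), control replicate 3 (0.136) or knockout replicate 2 (0.0769), on library totals (0.0673), after centring on neighbouring genes (0.208) and with GC trends removed (0.0857). SKIL, the paralogue of SKI, rose from 2.57, 4.23 and 3.89 CPM to 15.1, 9.79 and 10.5 CPM (log2 1.72, adjusted p = 0.00193). The promyelocyte marker MPO was at 11626 to 13987 CPM in the control and 2562 to 8538 CPM in the knockout, whereas ELANE, another azurophil granule gene, had at most 4 counts in a library. Of 9 promyelocyte markers tested 7 fell and 0 rose, MYB and SPI1 did not pass, and after centring on the chromosome 5 of the 7 calls held. AZU1, PRTN3, CEBPA and CD33 of this list lie on chromosome 19, as do ELANE and TCF3. The summed level of all 10 markers was 13228 to 15458 CPM in the control and 3381 to 9498 CPM in the knockout. Summed markers of other cells were low in every library, at most 6.14 CPM for 6 lymphoid genes, 2.62 CPM for 5 erythroid genes and 0.314 CPM for 6 stromal and epithelial genes. Of 2 lymphoid markers tested 1 rose and 1 fell, the 1 erythroid marker tested fell, and 0 stromal or epithelial markers had enough reads. In bulk RNA, fewer cells of a type and less RNA per cell cannot be told apart.

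Of the 6 tested genes, TCF4, TCF3 and ID2 fell in the knockout, ID1, ID3 and TCF12 did not pass the test, and none rose. Over all 16340 genes tested 5.63% were lower and 6.19% higher at the same threshold, an adjusted p of 0.05 in edgeR's quasi-likelihood test. TCF4, which encodes E2-2, was 4.84-fold lower, ID2 was 3.10-fold lower and TCF3 was 2.18-fold lower. The median log2 fold change of all tested genes was -0.01. The groups did not overlap for these 3 genes, as for 32.2% of all tested genes, and overlapped for the other tested members. Of the promyelocyte markers given above 7 of 9 tested fell too, and their part in these results was not tested.

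**Figure D1:**
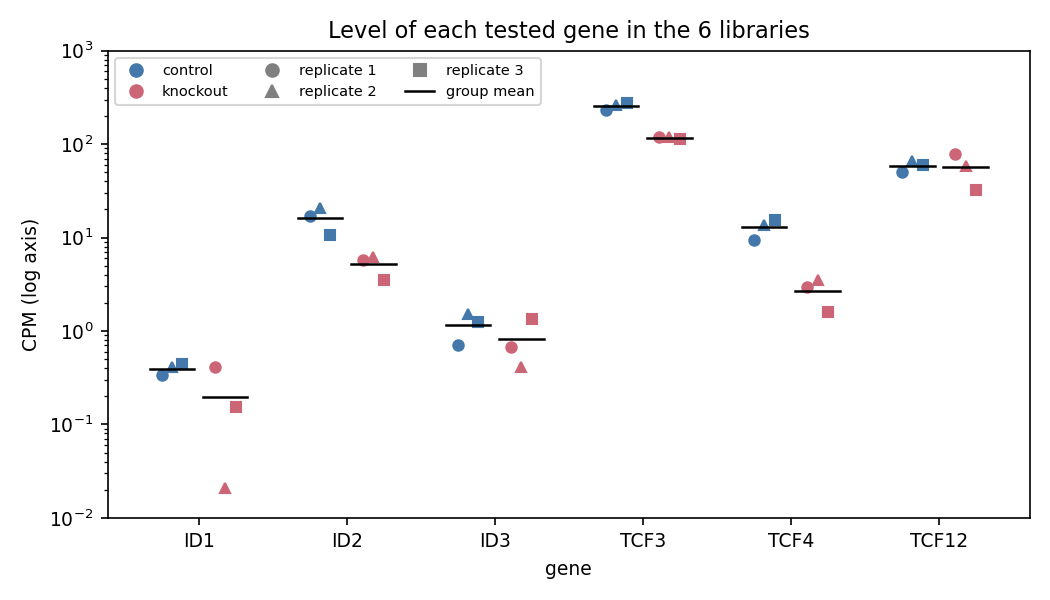
Level of each tested member in counts per 1000000 (CPM, log axis) in the 3 control and 3 knockout libraries, with symbols for the replicate and a bar at the group mean. Knockout values of TCF3, TCF4 and ID2 lie below all control values, and those of ID1, ID3 and TCF12 overlap them.

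Of the E-protein genes TCF4 and TCF3 fell and TCF12 did not pass the test. A difference between these genes was not tested. TCF4 counted 454, 810 and 880 reads in control libraries 1 to 3 and 162, 169 and 83 in the knockout libraries. In CPM these were 9.50, 13.7 and 15.5 against 2.93, 3.50 and 1.58. Every knockout value was below every control value, and knockout replicate 3 was the lowest. The means were 12.9 ± 3.09 and 2.67 ± 0.984 CPM (SD, n = 3). TCF4 thus fell by 2.28 on the log2 scale (SE 0.30, edgeR adjusted p = 0.00114). By log2 fold change TCF4 ranked 71 from the lowest of 16340 tested genes. TCF4 lies on chromosome 18, where 136 other genes with an average log2 CPM above 2 had a median log2 fold change of 0.03. Centring each library on the chromosome gave -2.29 for TCF4 (adjusted p = 0.000745). Over all 17 alternatives TCF4 ranged from -2.49 to -1.99, with adjusted p between 3.95e-17 and 0.0128. The authors' deposited table lists TCF4 at -2.01 on the log2 scale (SE 0.25, adjusted p = 3.93e-13). Exons of TCF4 share 65 bases with TCF4-AS2 and 195 bases with the pseudogene RPL21P126 on the opposite strand, and RPL21P126 had no count in any library. The kit was stranded, but the sources used here do not state whether counting used strand.

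TCF3, the source of E12 and E47, was the most abundant of the 7 genes and varied least within each group. Control replicates 1 to 3 had 230, 262 and 275 CPM, and knockout replicates 1 to 3 had 120, 118 and 115 CPM. The groups lay far apart, and the knockout values were closer to each other than the control values. The means were 256 ± 23.2 and 117 ± 2.71 CPM (SD, n = 3), so that the coefficient of variation was 9.05% in the control and 2.31% in the knockout. Over 10474 genes with an average log2 CPM above 2, the median coefficient of variation was 10.2% in the control and 16.8% in the knockout. The log2 fold change of TCF3 was -1.12 (SE 0.15, adjusted p = 0.000972), and -1.06 (SE 0.17, adjusted p = 1.75e-08) in the authors' deposited table.

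Genes around TCF3 were lower as well. TCF3 lies on chromosome 19. Of its 653 other genes with an average log2 CPM above 2, 86.1% were lower in the knockout, with a median log2 fold change of -0.48. Tested genes below that level, some of them with a lower log2 fold change than TCF3, were not counted. Above the same level, the 50 genes nearest to TCF3 in gene order had a median of -0.69, with 92.0% of them lower. Against the control mean, the median of these neighbours was -0.75, -0.69 and -0.54 in knockout libraries 1 to 3, while TCF3 was at -1.09, -1.11 and -1.15. TCF3 was thus below the neighbour median in each knockout library, and 3 of the 50 neighbours and 16 of the 653 genes had a lower log2 fold change than TCF3. With each library centred on its chromosome, the log2 fold change of TCF3 was -0.64 (adjusted p = 0.0198). Centred on the 50 neighbours, a setting added once the data had been seen, it was -0.46 and did not pass (adjusted p = 0.0728). Copies of the chromosome were not measured, and their part in the lower TCF3 level was not tested.

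**Figure D2:**
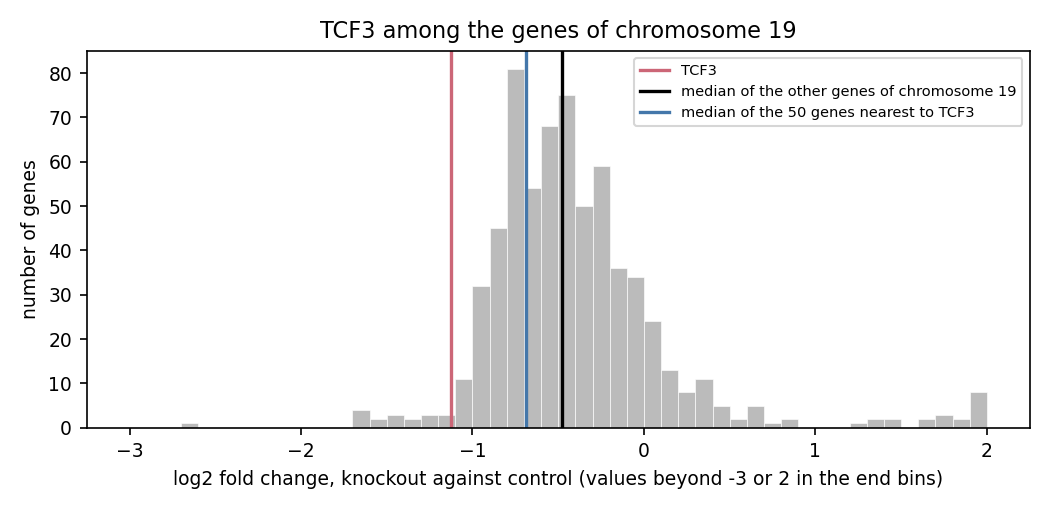
Number of genes of chromosome 19 (average log2 CPM above 2) by log2 fold change of knockout against control, with vertical lines for TCF3 (-1.12), the median of the other genes of the chromosome (-0.48) and the median of the 50 genes nearest to TCF3 (-0.69). TCF3 lies in the lower tail of a distribution that is itself shifted below 0.

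TCF12, which encodes HEB, had a group mean close to that of the control but a wide spread in the knockout. Control replicates gave 49.9, 66.3 and 60.5 CPM, and knockout replicates gave 79.1, 58.4 and 32.6 CPM. Knockout replicate 1 was above every control library and knockout replicate 3 below every one, so the groups overlapped. The means were 58.9 ± 8.28 and 56.7 ± 23.3 CPM (SD, n = 3). The log2 fold change was -0.06 with a 95% interval from -0.63 to 0.52 (adjusted p = 0.921), which does not show that the level was the same. It was 0.24 without knockout replicate 3 and 0.04 without control replicate 2. TCF12 and TCF4 are among the 2095 genes of 8.1 kb or longer, and the median of these genes in knockout replicate 3 was -0.31 on the log2 scale against the control mean, with -0.09 to 0.07 in the other libraries. With the trend removed, another setting added later, TCF4 was at -2.24 (adjusted p = 0.000571) and TCF12 did not pass (adjusted p = 0.998).

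**Figure D3:**
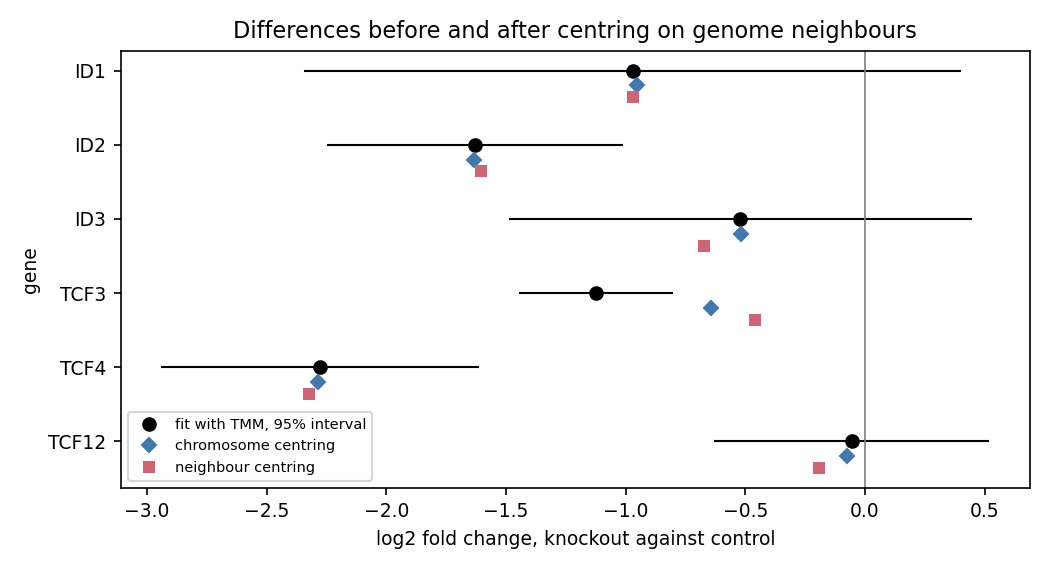
Log2 fold change of knockout against control for the 6 tested members (circles, with 95% intervals), and after centring each library on the chromosome (diamonds) or on the 50 nearest genes (squares). The value of TCF3 moves from -1.12 to -0.64 and -0.46, while those of TCF4 (-2.28, -2.29 and -2.32) and ID2 (-1.63, -1.63 and -1.60) hardly move.

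Among the ID genes only ID2 fell. ID2, the most abundant ID gene here, counted 808, 1211 and 606 reads in the control libraries and 318, 303 and 185 in the knockout libraries. In CPM these were 16.9, 20.6 and 10.7 against 5.75, 6.27 and 3.53. The lowest control value, in replicate 3, was above the highest knockout value. The means were 16.0 ± 4.995 and 5.18 ± 1.46 CPM (SD, n = 3). ID2 thus fell by 1.63 on the log2 scale (SE 0.28, edgeR adjusted p = 0.00412). ID2 lies on chromosome 2, where 622 other genes with an average log2 CPM above 2 had a median of -0.01. None of these 622 genes had a lower log2 fold change than ID2. Over the 17 alternatives ID2 ranged from -1.86 to -1.40, with adjusted p between 2.75e-10 and 0.0262. The authors' deposited table lists ID2 at -1.45 on the log2 scale (SE 0.25, adjusted p = 3.41e-07). Exons of ID2 share 38 bases with ID2-AS1 on the opposite strand, a gene not analysed here.

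ID3 and ID1 were measured with few reads, and neither passed the test. ID3 had 0.711, 1.53 and 1.25 CPM in the control replicates, against 0.669, 0.414 and 1.35 CPM in the knockout replicates. Knockout replicate 3 was within the control range, and control replicate 1 was close to knockout replicate 1. Its log2 fold change was -0.52 with a 95% interval from -1.48 to 0.44 (adjusted p = 0.487). ID1, the best known BMP target of the family, counted 16, 24 and 25 reads in the control libraries and 23, 1 and 8 in the knockout libraries. In CPM these were 0.335, 0.407 and 0.440 against 0.416, 0.0207 and 0.152. Knockout replicate 1 was as high as the control libraries, and replicates 2 and 3 were below all of them. Exact 95% Poisson intervals, which cover counting error only, ran from 0.191 to 0.650 CPM over the control libraries, and were 0.263 to 0.624, 0.000524 to 0.115 and 0.0658 to 0.3004 CPM in knockout libraries 1 to 3. The interval of knockout replicate 2 thus does not reach any control interval. The log2 fold change of ID1 was -0.97 with a 95% interval from -2.34 to 0.40 (adjusted p = 0.351). It was -2.11 without knockout replicate 1 (adjusted p = 0.101), -0.44 without knockout replicate 2 (adjusted p = 0.596) and -1.61 in limma-voom (adjusted p = 0.167).

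ID4 had 0 counts in all 6 libraries and was not tested. A count of 0 allows up to 3 counts, which corresponds to 0.0509 to 0.0628 CPM, or 0.0217 to 0.0268 reads per kilobase per 1000000 reads, depending on the library.

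Levels can be set beside each other only per length, here as reads per kilobase of the deposited gene length per 1000000 reads. In the control the order of mean levels per length was TCF3 at 42.2 ± 3.82, ID2 at 7.28 ± 2.27, TCF12 at 6.24 ± 0.877, ID3 at 0.647 ± 0.231, TCF4 at 0.577 ± 0.138 and ID1 at 0.320 ± 0.0438 (SD, n = 3). ID2 and TCF12 overlapped in range, as did ID3 and TCF4, whereas TCF3 was above and ID1 below all the others with reads. In the knockout the order was TCF3 at 19.4 ± 0.448, TCF12 at 6.003 ± 2.47, ID2 at 2.35 ± 0.661, ID3 at 0.452 ± 0.270, ID1 at 0.159 ± 0.163 and TCF4 at 0.119 ± 0.0440 (SD, n = 3). There ID2 was below TCF12 in range, whereas ID1 overlapped both ID3 and TCF4. The deposited length of TCF4 is 22.4 kb. A length that spans all exons of a gene understates the level per length of genes with many isoforms.

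The summed ID genes and the summed E-protein genes were both lower in the knockout. The ID sum per length was 8.33, 10.5 and 5.89 in the control libraries and 3.32, 3.09 and 2.48 in the knockout libraries. The E-protein sum was 43.7, 50.8 and 52.5 against 28.3, 25.8 and 22.4. Neither sum overlapped between groups. Their ratio, E-protein to ID, was 5.24, 4.84 and 8.91 in the control and 8.54, 8.34 and 9.06 in the knockout, and here the groups overlapped, with control replicate 3 within the knockout range. ID2 made up 82.1% to 92.0% of the ID sum in the control and 64.6% to 92.0% in the knockout. TCF3 made up 85.0% to 86.9% of the E-protein sum in the control and 69.9%, 75.4% and 84.3% in knockout libraries 1 to 3. The share of TCF12 was 12.1% to 13.8% in the control and 29.6%, 24.0% and 15.4% in the knockout libraries, above the control in each. TCF4 went from a mean of 1.17% ± 0.177 to 0.461% ± 0.145 of the sum (SD, n = 3). TCF12 itself was at 6.24 in the control and 6.003 in the knockout on average, so its higher share goes with the lower sum. The sums consist mostly of ID2 and TCF3, already called lower above, and are no separate result. The lower level of TCF3 was shared by other genes of chromosome 19, and the sums were not centred for this. These sums describe mRNA, and no test was run on them.

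**Figure D4:**
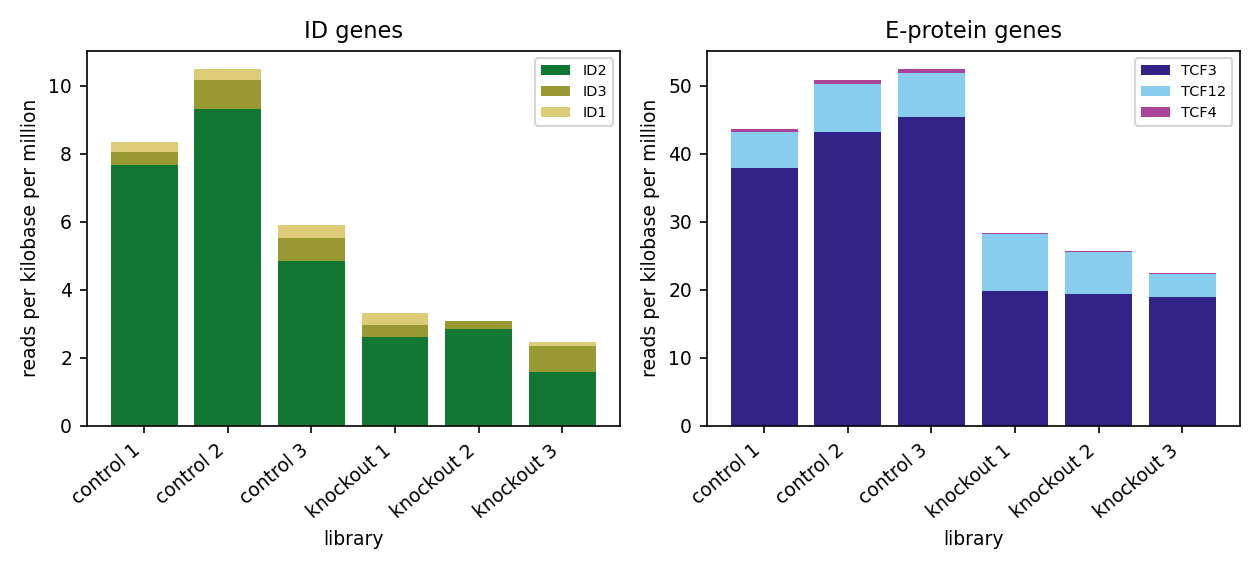
Stacked bars of reads per kilobase per 1000000 reads for the ID genes (left) and the E-protein genes (right) in each library, where ID4 is at 0. ID2 and TCF3 are the largest part of every bar, and both sums are lower in all 3 knockout libraries.

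Across the 6 libraries the fallen genes were correlated, but they were picked as lower in the knockout, and that group difference is included in the correlation. The Pearson correlation of log2 CPM was 0.97 between TCF3 and TCF4, 0.91 between ID2 and TCF4 and 0.88 between ID2 and TCF3. For deviations from the group means these were 0.68, 0.40 and -0.20, and TCF4 and TCF12, the highest pair of tested members, were at 0.82. Both are long genes and were lowest in knockout replicate 3, where the median of the longest genes was -0.31. The part of gene length in this correlation was not tested. The correlations are descriptions over 6 libraries that share their normalization. Among 10564 candidate genes (average log2 CPM not under 2), those with the pattern most like TCF4 over the 6 libraries were ZNF561, TMX1 and DOT1L (Pearson r 0.997 to 0.998). CDAN1, RHOXF2B and AP2A1 were most like TCF3 (0.998 each), and PRKAG2, LPXN and SAV1 most like ID2 (0.989 to 0.990). Those most like TCF12 were CBL, SUCO and ZNF12 (0.994 to 0.997), those most like ID1 OSBPL7, PLIN3 and G2E3 (0.979 to 0.986), and those most like ID3 AGPAT6, GMFB and PKMYT1 (0.963 to 0.965). These genes were picked as the highest of many, so the size of r is no measure of a relation.

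Other genes of the network, 155 in 7 lists, moved in both directions. Of 90 tested, 12 rose and 13 fell, or 13.3% and 14.4%, with a median log2 fold change of -0.08. Over all tested genes these shares were 6.19% and 5.63% and the median was -0.01, the background for the counts of each list. The lists were written with earlier results of these data known, and no list was tested as a set. Of the genes that rose, TAL1 and CDKN1C needed the knockout libraries to pass the filter on low counts. Of those that fell, IGLL1, BMPR1B and ACVR1 needed the control libraries. The shares among the 90 genes thus rest in part on calls that depend on the filter. With 1 library left out (lowest for genes that rose without control replicate 2, for genes that fell without control replicate 3), between 7 and 15 genes rose and between 6 and 15 fell.

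Of 31 bHLH partners of E-proteins only 5 had enough reads to be tested, and 1 of them, TAL1, was past the threshold. TAL1, the haematopoietic partner that forms a complex with E-proteins, LMO2 and LDB1, had 0 counts in every control library and values of 0.289, 0.186 and 0.267 CPM across the knockout libraries. The knockout mean was 13.5 times a floor of 3 counts over the control group. That value allows for no error in the knockout counts and is not a lower bound. TAL1 passed the filter on low counts only through the knockout libraries, so its call is no support for a difference. All 3 knockout values were low, and without knockout replicate 3 TAL1 did not reach that filter. LYL1, the close relative of TAL1, was the most abundant partner, at 410, 317 and 467 CPM in the control and 312, 215 and 548 CPM in the knockout, and did not pass (adjusted p = 0.779). TWIST1 did not pass either, at 9.78 and 9.06 CPM on average.

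Of 15 E-protein cofactors tested, 2 fell and 0 rose. RUNX1, a haematopoietic master regulator found at many E-protein sites, was at 83.8, 154 and 95.9 CPM in the control and 42.8, 49.6 and 31.9 CPM in the knockout (log2 -1.43, SE 0.24, adjusted p = 0.00364). SSBP4, a partner of LDB1, fell by 0.96 on the log2 scale (adjusted p = 0.00263). SSBP4 lies on chromosome 19 and did not pass after centring on the chromosome (-0.49, adjusted p = 0.0594). The bridging factors LMO2 and LDB1 were at log2 fold changes of -0.29 and -0.34, and the co-activators CREBBP and EP300 at 0.02 and 0.01, none of them past the test.

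Among other bHLH repressors, 2 of 7 tested rose and 2 fell. HES1, a Notch target, was at 3.33, 1.44 and 4.70 CPM in the control and 20.8, 6.19 and 34.2 CPM in the knockout (log2 2.69, SE 0.54, adjusted p = 0.00881). BHLHE40, a stress- and clock-related repressor, rose by 1.40 on the log2 scale (adjusted p = 0.00384), whereas its paralogue BHLHE41 fell by 1.55 (adjusted p = 0.0254). The BHLHE41 call ended in DESeq2 (adjusted p = 0.0598) and without control replicate 2 (0.104), control replicate 3 (0.0591) or knockout replicate 1 (0.121), and the value was -2.15 without knockout replicate 2. HES6 fell from 121 to 63.1 CPM on average (log2 -0.94, adjusted p = 0.00291), and did not pass with GC trends removed (-0.49, adjusted p = 0.104).

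Of 17 tested genes of the BMP input to ID genes, 2 rose and 3 fell. ACVR2A, a type II receptor for activins and BMPs, rose from 2.20, 2.44 and 2.71 CPM to 18.9, 8.15 and 17.9 CPM (log2 2.61, SE 0.30, adjusted p = 0.000616). SMAD7, an inhibitory SMAD, rose by 0.89 on the log2 scale (adjusted p = 0.00854, or 0.0567 without control replicate 3). SMAD6, also an inhibitory SMAD, did not pass (log2 -0.04, adjusted p = 0.938). The type I receptor genes BMPR1B and ACVR1 fell, with log2 fold changes of -1.91 and -1.57, from levels of at most 1.26 CPM. Both needed the control libraries to pass the filter on low counts. BMPR1A, a more abundant type I receptor gene at 9.58 and 8.30 CPM on average, did not pass (log2 -0.21, adjusted p = 0.497). The type II receptor genes BMPR2 (0.22) and ACVR2B (-0.45) did not pass either. BMPR1B did not pass without control replicate 2 (adjusted p = 0.0603) or 3 (0.0892), and ACVR1 without control replicate 1 (0.0757), 2 (0.0853) or 3 (0.0771). The ligand gene BMP6 fell by 1.03 on the log2 scale (adjusted p = 0.0435), and its adjusted p was between 0.0637 and 0.160 on library totals and without control replicates 1, 2 or 3 or knockout replicates 1 or 3. The BMP-activated SMADs did not pass, with SMAD1 at -0.31, SMAD5 at -0.13 and SMAD9 at -0.64, and the common SMAD4 was at 0.03.

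Of 19 tested genes for ID protein binding and turnover, 1 rose and 1 fell. ETS1, a DNA-binding partner that ID proteins can block, was at 80.3, 60.3 and 115 CPM in the control and 157, 178 and 154 CPM in the knockout (log2 0.94, adjusted p = 0.0155). It did not pass without control replicate 1 (adjusted p = 0.0521) or control replicate 2 (0.0691). SKP2, a ubiquitin ligase subunit, fell by 0.65 on the log2 scale (adjusted p = 0.0300), and did not pass without control replicate 1 (0.0843), 2 (0.0852) or 3 (0.117) or knockout replicate 1 (0.0981). USP1, which removes ubiquitin from ID proteins, was at 0.02 with an adjusted p of 0.960, its partner WDR48 at -0.18 and RB1, a binding partner of ID2, at 0.19.

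Of 17 known E-protein target genes tested, 5 rose and 2 fell. The list holds 4 genes for inhibitors of cyclin-dependent kinases, of which CDKN2A did not pass (log2 0.39, adjusted p = 0.265). CDKN1A, the p21 gene, was at 0.879, 0.390 and 0.599 CPM in the control and 9.05, 2.17 and 15.8 CPM in the knockout (log2 3.86, or 3.21 without knockout replicate 3, adjusted p = 0.00263). CDKN2B, the p15 gene, was at 2.45, 1.27 and 3.03 CPM against 11.04, 3.50 and 15.9 CPM (log2 2.18, adjusted p = 0.0131). In each of these genes knockout replicate 2 was the lowest knockout library, above all control libraries. The CDKN2B call ended without control replicate 2 (adjusted p = 0.0514) or knockout replicate 1 (0.0598). CDKN1C rose by 1.86 on the log2 scale from low levels (adjusted p = 0.0378), but needed the knockout libraries to pass the filter on low counts. Its adjusted p was up to 0.172 without control replicates 2 or 3 or knockout replicates 1 or 3, and 0.0537 after neighbour centring. Without control replicate 1 its log2 fold change was 2.49.

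Immune-cell genes of the same list went both ways. IGLL1, a surrogate light chain gene of early B cells, was at 1.61, 1.31 and 0.793 CPM in the control and 0.0904, 0.145 and 0.0953 CPM in the knockout (log2 -3.47, SE 0.44, adjusted p = 0.000834). IGLL1 passed the filter on low counts only through the control libraries, so its call is no support for a difference. CD79A, a chain of the B cell receptor complex, rose by 1.70 on the log2 scale (adjusted p = 0.0162, or 0.0657 and 0.0521 without control replicate 2 or 3). TCF7, which encodes the T cell factor TCF-1, rose by 1.90 (adjusted p = 0.0103, or 0.0569 without knockout replicate 1). CXCR4, a chemokine receptor, fell by 1.29 (adjusted p = 0.0111, or 0.0600 without knockout replicate 1). PTCRA, a classic target of HEB and E47 in T cells, had 0 counts in every library.

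Of 10 plasmacytoid dendritic cell genes tested, 1 rose and 3 fell. BCL11A, a transcription factor gene linked to E2-2 in that cell type, was at 36.7, 39.4 and 40.4 CPM in the control and 18.5, 26.1 and 19.2 CPM in the knockout (log2 -0.87, SE 0.17, adjusted p = 0.00837). ZEB2, another regulator of these cells, fell by 1.41 on the log2 scale (adjusted p = 0.0165), with an adjusted p of 0.0691, 0.0696 and 0.0765 without control replicate 2, control replicate 3 and knockout replicate 1. LAMP5 fell by 1.88 (adjusted p = 0.0404) and was at -2.96 without knockout replicate 2, and its adjusted p was between 0.0752 and 0.162 in DESeq2 and without control replicates 1, 2 or 3 or knockout replicate 1. NRP1, a surface receptor, rose by 1.47 (adjusted p = 0.0107), with an adjusted p of 0.0502, 0.0581 and 0.0582 without control replicate 2, control replicate 3 and knockout replicate 1. TLR9 was at 94.1, 96.2 and 88.8 CPM in the control and 85.3, 104 and 96.0 CPM in the knockout, without passing. Of the 20 listed genes 10 had too few reads to be tested, and 5 had no count in any library. IRF8 had no count, CLEC4C at most 1 count in a library and LILRA4 at most 3. In contrast, IL3RA was at 0.204 to 0.934 CPM, IRF7 at 9.71 to 34.4 CPM and RUNX2 at 26.5 to 57.2 CPM over the libraries, without passing.

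**Figure D5:**
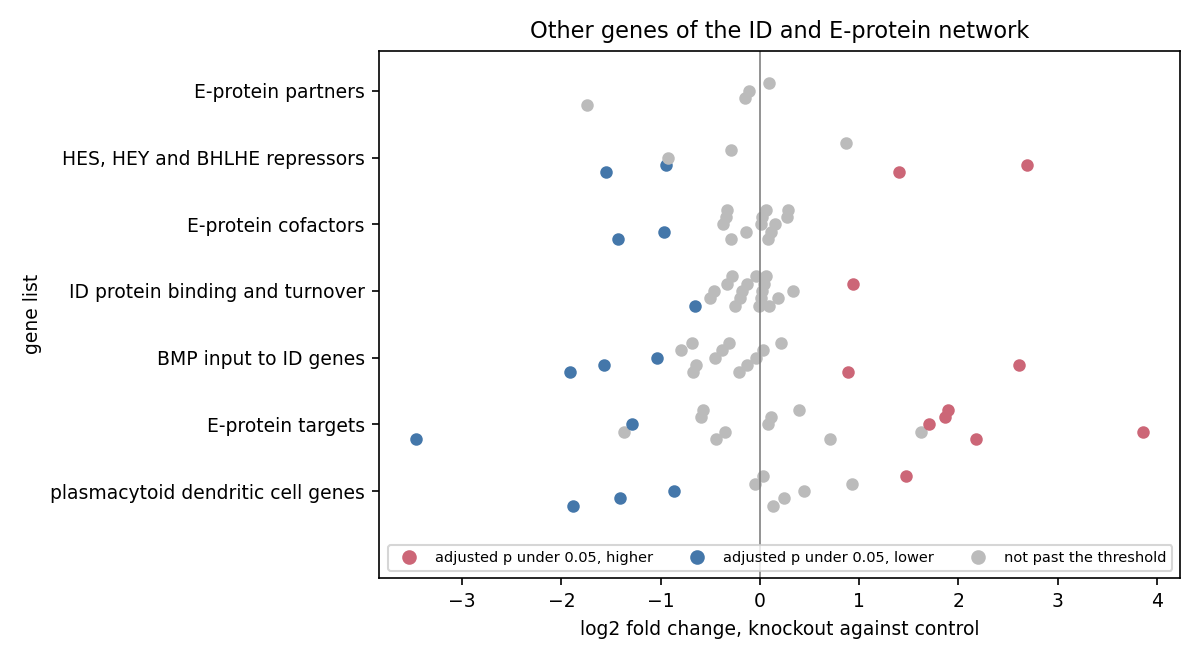
Log2 fold change of knockout against control for each tested gene of the 7 network lists, coloured by the edgeR call at an adjusted p of 0.05. TAL1, with 0 control counts, is not drawn, and 5 of the lists hold calls in both directions.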

How the data were processed

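RNA from 6 HL60 libraries was made into stranded TruSeq mRNA libraries, per the labels' protocols. The authors deposited raw counts per gene. Tools named, without their order, are featureCounts of Subread, TopHat2, DESeq2, DESeq and bcl2fastq, and the build is hg19, per the submitters' processing notes; the sources used here do not give versions, annotation or strand setting. A second deposited table holds the authors' size-factor-normalized signal, log2 fold changes, the Wald statistic (a score) and p-values; its log2 fold changes, standard errors and adjusted p-values are quoted for TCF3, TCF4 and ID2, and ID1, ID3 and TCF12 do not pass there either (adjusted p = 0.377, 0.511 and 0.956).

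Genes were tested with edgeR 4.0.16 in R 4.3.3 (filterByExpr, TMM, quasi-likelihood test, Benjamini-Hochberg threshold 0.05) over 16340 genes, 3 libraries against 3. The standard error was derived from the F statistic and intervals are 95%. Levels are counts per 1000000 (CPM) on TMM-scaled library sizes, also divided by the deposited gene length. In simulated counts for these 16340 genes, 200 genes with a log2 mean CPM above 2 were changed. Of these, 75% of 2-fold and 100% of 4-fold changes were recovered, and 8.38% of calls were false. ID1 and ID3 lie below that level, so the recovery does not cover them. The false share was above the threshold of 0.05. It came from a single draw with far fewer changed genes than the 1932 called in the data. The recovered and false shares therefore need not hold for the data. Alternatives were DESeq2 1.42.0, limma 3.58.1 (voom), other scaling and filters, leaving out each library, a replicate block and centring on the chromosome. Centring on 50 neighbours and removal of GC or length trends were chosen after seeing the data. Chromosomes and gene order came from GENCODE 29 by symbol (80.8% of tested genes), with no coordinates converted.

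The members and gene lists were chosen with earlier results of these data known. Genes named are the members, SKI, SKIL, list genes past the threshold, the 3 genes most correlated with each tested member, and further list genes picked after their values were seen. Lists were E-protein partners, HES, HEY and BHLHE repressors, E-protein cofactors, ID protein binding and turnover, BMP input, E-protein targets, plasmacytoid dendritic cell genes, and markers of promyelocytes, lymphoid, erythroid, and stromal and epithelial cells.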

Additional observations from a re-analysis of the deposited data

How the results depend on the processing

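TCF4 and ID2 were lower and past the threshold in all 17 alternatives, and TCF3 in 16 of them, the exception being centring on its 50 neighbours (-0.46, adjusted p = 0.0728). ID1, ID3 and TCF12 passed in none of the alternatives in which they were tested. The log2 fold change of TCF12 reversed to 0.04 without control replicate 2 and to 0.24 without knockout replicate 3, and was lowest, -0.37, without knockout replicate 1, and the cause was not tested. Over all genes 1012 were higher and 920 lower. With no filter 1630 were higher, and with chromosome and neighbour centring 560 and 515 were lower. With 1 library left out, 440 to 1410 were higher and 300 to 1078 lower, both lowest without control replicate 3 and highest without knockout replicate 2. Among the other network genes these ranges were 7 to 15 higher and 6 to 15 lower. The E-protein to ID ratio without division by gene length was on average 19.9 in the control and 28.7 in the knockout. By library it was 16.1, 15.2 and 28.4 against 29.6, 26.8 and 29.6, and the groups overlapped, with control replicate 3 within the knockout range. With a replicate block 1103 genes were higher and 1004 lower, and 3 members fell. Libraries with the same number had correlated deviations of -0.19, 0.42 and -0.10, and control replicate 1 correlated best with knockout replicate 3 (0.54), so the numbers were not taken as pairs. Few reads limit ID1, ID3 and ID4.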
